A study of Rattus norvegicus with 48 samples.

Results

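The genes described are the rat enzymes that remove superoxide and peroxides, 10 of the 30211 genes of the deposited table: the superoxide dismutases Sod1, Sod2 and Sod3, catalase (Cat), the glutathione peroxidases Gpx1, Gpx3 and Gpx4, and the peroxiredoxins Prdx2, Prdx3 and Prdx5. They were taken by symbol, and their values were read in each library of 16 treatment groups. All 10 passed the filter on low values, in each library, with 366 to 106066 reads per gene and library.

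The study asked how 4-octyl-itaconate (4OI), a cell-permeable ester of the metabolite itaconate, and 3 other small molecules act on cultured brain cells exposed to the HIV protein Tat and to cocaine. Polyadenylated RNA was sequenced in 48 libraries, 3 per group. The cells were mixed cortical cultures of Sprague-Dawley rat fetuses, taken at 18 days of gestation and used after 21 days in vitro. The groups were Control, Cocaine (25 uM for 24 h), HIV Tat (recombinant Tat at 6 ng/ml for 48 h) and HIV Tat + Coc (both). The 4 compounds were each given for 48 h alone, with Tat (X+HIV Tat) and with Tat and cocaine (X+T+Coc), at 250 uM for 4OI, 25 uM for Amlexanox (Aml), 3 uM for Tazemetostat (TAZ) and 1 uM for Senicapoc (Sen). No compound was combined with cocaine alone, each compound was used at 1 dose, and the groups given no compound are not split by solvent in the labels. The labels do not say whether the 3 libraries of a group came from separate animals or cultures, so p-values measure only the spread between these libraries.

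Superoxide dismutases turn superoxide into hydrogen peroxide and oxygen, Sod1 in the cytosol, Sod2 in the mitochondrial matrix and Sod3 outside the cell. Hydrogen peroxide is then broken down by catalase in peroxisomes, by the selenium-dependent glutathione peroxidases, which draw electrons from glutathione, and by the peroxiredoxins, which draw them from thioredoxin. In the brain, Sod2 is a well-known target of the inflammatory factor NF-κB, and the factor Nrf2 drives many genes of glutathione and thioredoxin supply.

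Values are CPM, read counts scaled to the size of each library by the authors, and differences are log2 fold changes of CPM + 0.5 with their standard error (SE). A gene was called changed at a false discovery rate (FDR) under 0.05 over 15890 genes. The cultures are labelled as neurons, but markers of several cell types were present. In the 48 libraries the summed CPM of 12 neuron markers was 1276 to 5592, of 10 astrocyte markers 5844 to 14520 and of 12 microglial markers 599 to 6497, while 5 endothelial markers summed to at most 8.40 and 5 red blood cell markers to at most 3.52. In Cocaine replicate 3, which stood apart, the 10 oligodendrocyte markers summed to 26567, against at most 2805 in the other 47. In bulk RNA, fewer cells of a type and less RNA per cell cannot be told apart.

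The stretches of 250 bases before the start sites are shown for members that rose with Tat (Sod2, Prdx5) or with 4OI (Cat, Sod1), and for Prdx3, a mitochondrial peroxiredoxin that moved little. RefSeq sequences of the GRCr8 assembly were at hand for 9 of the 10 members, not for Sod3. The start sites used were not always the outer ends of the RefSeq genes. The Prdx5 stretch lay inside its gene (chr1:213529042-213532787), and the Sod1 stretch ran into its gene, which starts at 42942742. Capitals mark matches to the core of the antioxidant response element bound by Nrf2 (TGACNNNGC) or to the 10-letter NF-κB consensus, on either strand, and the marked matches do not overlap each other.
Sod2 (chr1:50050169-50050418, minus strand): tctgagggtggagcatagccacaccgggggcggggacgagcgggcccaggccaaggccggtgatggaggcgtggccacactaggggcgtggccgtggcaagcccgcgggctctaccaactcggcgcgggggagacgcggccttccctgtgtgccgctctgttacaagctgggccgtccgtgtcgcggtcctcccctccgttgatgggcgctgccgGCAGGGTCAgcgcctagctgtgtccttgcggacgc
Prdx5 (chr1:213532028-213532277, minus strand): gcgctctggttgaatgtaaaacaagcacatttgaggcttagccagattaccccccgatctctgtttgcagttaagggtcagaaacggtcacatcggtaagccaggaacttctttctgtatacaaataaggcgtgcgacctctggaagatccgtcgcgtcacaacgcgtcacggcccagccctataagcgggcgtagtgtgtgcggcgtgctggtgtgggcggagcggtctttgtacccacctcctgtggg
Cat (chr3:110329527-110329776, minus strand): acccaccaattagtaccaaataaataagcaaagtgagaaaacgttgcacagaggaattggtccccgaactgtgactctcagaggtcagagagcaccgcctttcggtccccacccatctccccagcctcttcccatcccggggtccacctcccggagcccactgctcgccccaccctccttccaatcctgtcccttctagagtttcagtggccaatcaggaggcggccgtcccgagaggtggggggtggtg
Sod1 (chr11:42942573-42942822, plus strand): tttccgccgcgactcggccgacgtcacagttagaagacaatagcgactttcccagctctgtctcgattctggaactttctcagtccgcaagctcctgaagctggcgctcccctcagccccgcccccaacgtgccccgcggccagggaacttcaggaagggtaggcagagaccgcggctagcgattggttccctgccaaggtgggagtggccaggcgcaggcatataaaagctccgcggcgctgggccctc
Prdx3 (chr1:270000112-270000361, minus strand): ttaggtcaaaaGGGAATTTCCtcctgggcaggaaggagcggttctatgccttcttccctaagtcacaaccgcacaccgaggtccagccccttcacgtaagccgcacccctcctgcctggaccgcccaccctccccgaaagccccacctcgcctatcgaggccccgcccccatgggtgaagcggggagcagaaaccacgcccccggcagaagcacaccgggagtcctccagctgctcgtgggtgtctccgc
Sod2 held 1 match to the antioxidant response element core, which 10.1% of all 33469 promoter stretches of that length held, and Cat and Sod1 held none. The NF-κB consensus, present in 6.33% of all stretches, had 1 match in Prdx3, 1 in Gpx1 and 1 before the third start site of Gpx4, and none in the stretches of Sod2 and Prdx5. These letters are a description of short windows only, and the sequence before the outer end of the Prdx5 gene was not scanned.

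Tat raised Sod2, Prdx5 and Sod3 and lowered Gpx3, and the other 6 members did not pass the test. HIV Tat against Control called 21.3% of all genes, beside 4 of the 10 members. The median log2 difference was 0.09 over the members and 0.01 over all genes tested.

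Sod2, the mitochondrial dismutase, lay at 175, 398 and 149 CPM in the Control libraries and at 4383, 4599 and 3370 in HIV Tat. The groups did not overlap, and each Tat library was above each Control library. The log2 difference was 4.22 (SE 0.44, n = 3 and 3, FDR = 7.10e-09 by limma), an 18.7-fold rise with a 95% confidence interval of 10.1 to 34.4. Over all 48 libraries Sod2 spanned 35.3-fold, the widest range of the members, and the 30 libraries with Tat (970 to 4649 CPM) did not overlap the 18 without it (132 to 647).

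Prdx5, a peroxiredoxin of mitochondria, peroxisomes and cytosol, read 167, 198 and 163 CPM in Control and 376, 539 and 389 in HIV Tat. Each Tat library lay above each Control library, with a log2 difference of 1.29 (SE 0.21, n = 3 and 3, FDR = 2.84e-05). Sod3, the secreted dismutase, read 31.3, 38.9 and 38.8 CPM in Control and 58.6, 52.8 and 55.4 in HIV Tat. Those groups did not overlap either, with a log2 difference of 0.61 (SE 0.19, FDR = 0.0194). The Sod3 call was lost without HIV Tat replicate 1 (0.58, FDR = 0.0643) or Control replicate 1 (0.51, FDR = 0.116).

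Gpx3, the secreted glutathione peroxidase, moved the other way. Its libraries were at 168, 188 and 148 CPM in Control and at 69.1, 80.5 and 65.8 in HIV Tat, again without overlap. The log2 difference was -1.22 (SE 0.39, n = 3 and 3, FDR = 0.0235), and leaving out HIV Tat replicate 1, 2 or 3 or Control replicate 1 or 2 moved the FDR to between 0.0513 and 0.0677, with differences of -1.30 to -1.14. In a fit to the 21 libraries without the other 3 compounds, the FDR was 0.106 for Gpx3 and 0.0895 for Sod3.

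**Figure D1:**
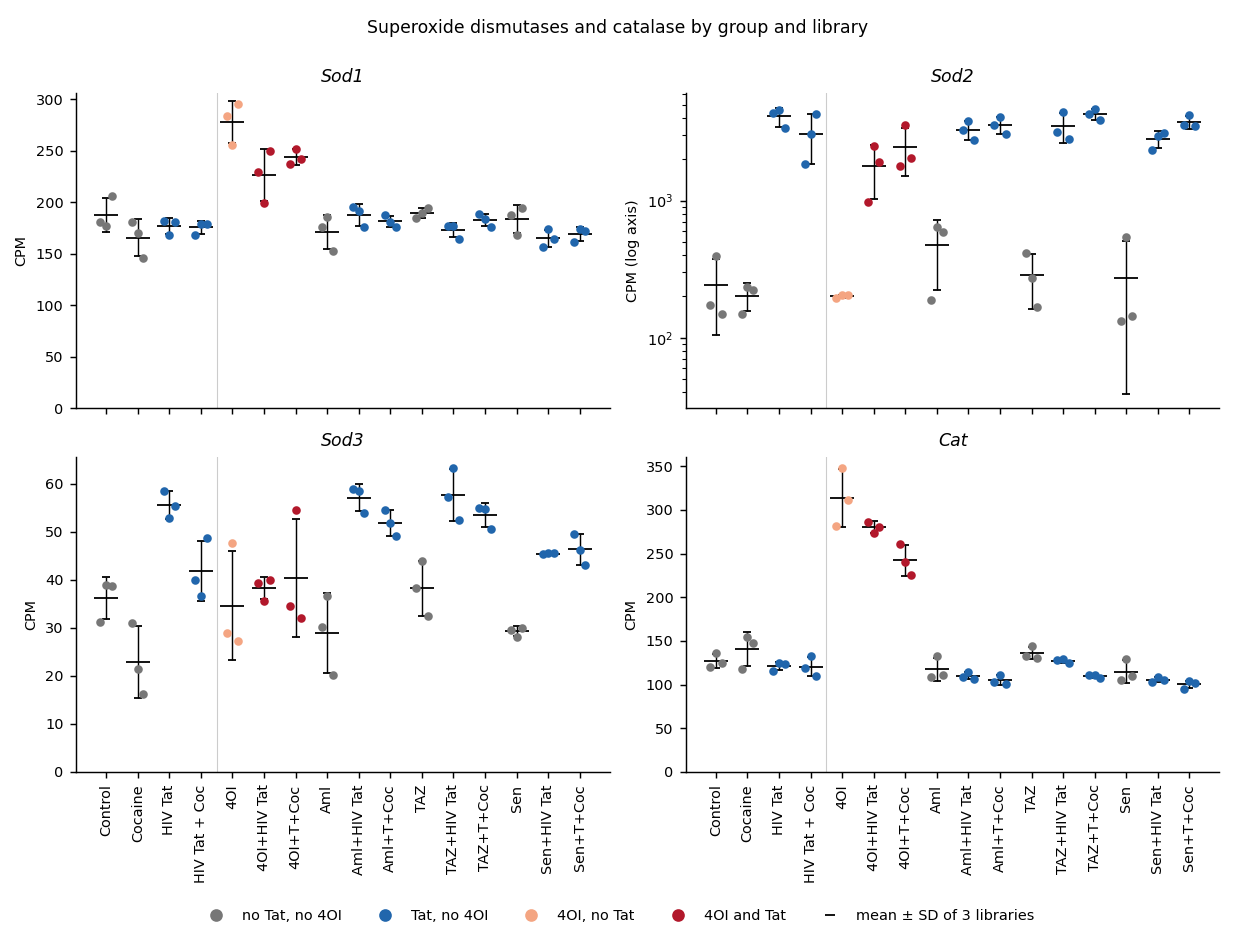
CPM of Sod1, Sod2, Sod3 and Cat in each library (points) of the 16 groups, with the mean and SD of 3 libraries as bars; Sod2 is on a log axis. The 30 Tat libraries of Sod2 sit between 970 and 4649 CPM, above all 18 without Tat, and the 9 libraries with 4OI have the highest Cat values, 225 to 348 CPM.

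The 6 other enzymes did not pass the test. Sod1 averaged 177 ± 7.72 CPM (SD, n = 3) in HIV Tat and 188 ± 16.3 in Control, and Cat 121 ± 4.94 and 127 ± 8.38. Their log2 differences were -0.08 (SE 0.08, FDR = 0.468) and -0.06 (SE 0.09, FDR = 0.619). Gpx4, which reduces lipid peroxides in membranes, differed by -0.13 (SE 0.07, FDR = 0.176) and the cytosolic Gpx1 by 0.27 (SE 0.27, FDR = 0.476). For Prdx2, the cytosolic peroxiredoxin, the difference was -0.04 (SE 0.05, FDR = 0.585), and for the mitochondrial Prdx3 it was 0.21 (SE 0.09, FDR = 0.0944).

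The effect of Tat was also measured beside each compound, with the group given that compound alone as its own control. Sod2 rose in all 5 backgrounds, by 2.97 to 4.22 on the log2 scale (SE 0.44 each). Gpx4 fell beside each of the 4 compounds, by 0.34 beside amlexanox, by 0.29 beside tazemetostat, by 0.42 beside senicapoc and by 0.32 beside 4OI (SE 0.07 each). Prdx5 passed in 4 backgrounds (0.76 to 1.29) and not beside 4OI (0.40, SE 0.21, FDR = 0.298). Sod3 passed in the same 4 (0.59 to 1.01) and not beside 4OI (0.19, SE 0.19, FDR = 0.654).

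Gpx3 passed without a compound, beside amlexanox (-1.55) and beside 4OI (-1.48), and had differences of -0.90 beside tazemetostat and -0.50 beside senicapoc (SE 0.39 each). Beside amlexanox Gpx1 also rose (0.77, SE 0.27, FDR = 0.0224), a call lost without Aml replicate 3 (0.57, FDR = 0.143) or without Aml+HIV Tat replicate 1 or 2. Prdx2 fell beside tazemetostat (-0.16, SE 0.05, FDR = 0.0293) and Sod1 fell beside 4OI (-0.30, SE 0.08, FDR = 0.0227), where it started from a raised level. In all, 6 of the 10 members were called beside amlexanox (39.6% of all genes), 5 beside tazemetostat (16.1%), 4 beside senicapoc (16%) and 4 beside 4OI (5.18%).

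The calls beside tazemetostat, senicapoc and 4OI rested on few libraries. Leaving out single libraries gave 3 to 5 calls for tazemetostat (Sod3 lost without TAZ replicate 1 or 3 or TAZ+HIV Tat replicate 1 or 2, Prdx2 without TAZ replicate 2 or 3 or TAZ+HIV Tat replicate 1 or 2, Gpx4 without TAZ replicate 1), 2 to 4 for senicapoc (Sod3 lost without Sen replicate 1 or 2 or Sen+HIV Tat replicate 2 or 3, and Prdx5 without Sen replicate 1 or 3 or Sen+HIV Tat replicate 2) and 2 to 4 for 4OI (Sod1 lost without 4OI replicate 1 or 3 or 4OI+HIV Tat replicate 2, Gpx4 without 4OI replicate 1 or 4OI+HIV Tat replicate 2, Gpx3 without 4OI replicate 2 or 4OI+HIV Tat replicate 3), and Sod2 was called in each.

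**Figure D2:**
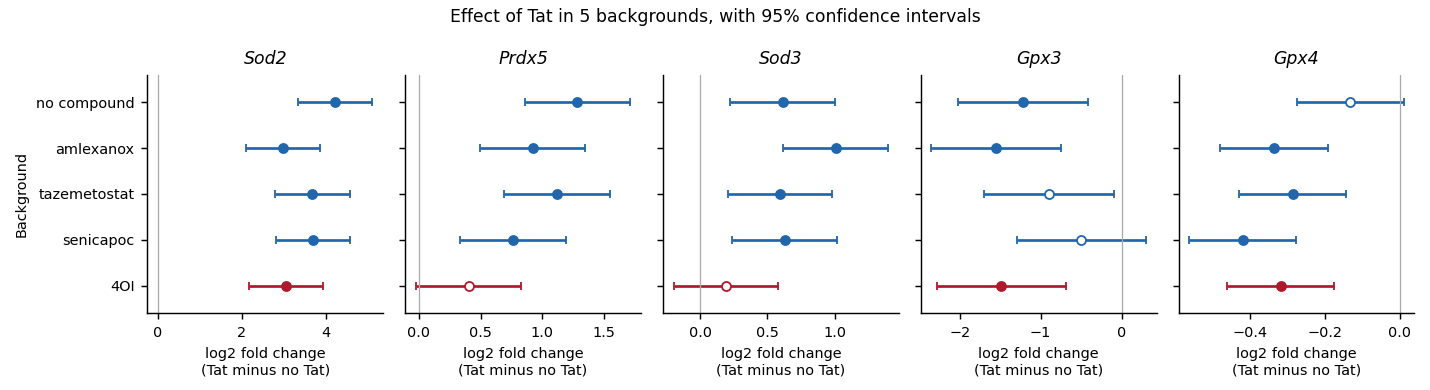
Log2 fold change of Tat against no Tat (x axis) for 5 members without a compound and beside each of the 4 compounds, with 95% confidence intervals; filled points passed an FDR of 0.05. All intervals of Sod2 lie above 0, and the Prdx5 and Sod3 points beside 4OI are open, with intervals that reach 0.

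Whether Tat acted differently beside a compound was tested as a difference of 2 effects. None of the 10 members passed for any compound by limma. At an unadjusted p under 0.05 there was 1 member for 4OI, 1 for amlexanox, 1 for senicapoc and 0 for tazemetostat. At that same threshold there were 1896, 2895, 762 and 271 of all 15890 genes, in that order. By FDR, 0.497%, 1.84%, 0% and 0% of all genes were called. The 4OI contrast with the lowest p was Prdx5, whose Tat effect was smaller beside 4OI (difference -0.88, 95% confidence interval -1.49 to -0.28, FDR = 0.194). For Sod2 the same difference was -1.17 (-2.42 to 0.08, FDR = 0.443), and for Sod3 it was -0.42 (-0.97 to 0.13).

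Averaged over the 5 backgrounds (15 libraries with Tat against 15 without, cocaine left out), 9 of 10 members were called, 4 higher and 5 lower, where 56.5% of all genes were called. Median differences were 0.02 over the members and -0.0031 over all genes. Sod2 (3.52, SE 0.19), Prdx5 (0.90, SE 0.09), Sod3 (0.61, SE 0.09) and Prdx3 (0.12, SE 0.04) rose. Gpx3 (-1.13, SE 0.18), Gpx4 (-0.30, SE 0.03), Sod1 (-0.11, SE 0.04), Cat (-0.10, SE 0.04) and Prdx2 (-0.07, SE 0.02) fell, while Gpx1 had a difference of 0.20 (SE 0.12, FDR = 0.145). The Cat call was lost without Aml replicate 2, 4OI replicate 2 or Sen replicate 2 (FDR = 0.0550 to 0.0579), and the Prdx3 call when libraries were rescaled to equal sums (0.08, FDR = 0.0961) or quantile normalized (0.08, FDR = 0.0884).

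Genes that feed or oppose these enzymes were read in the same average, in which 56.5% of all genes were called. Of 29 tested genes for copper delivery, thioredoxin, glutathione, selenium and peroxisome import, 8 rose and 10 fell, 18 called in all and thus a share near that of all genes, with a median of -0.03. The called genes with the largest differences were Selenop, the plasma carrier of selenium (-1.76), Sephs2, which makes the selenium donor of selenoproteins (0.63), Glrx, a glutaredoxin (0.62), and Gclc, which catalyses the first step of glutathione synthesis (-0.56). Selenop fell along with Gpx3, itself a secreted selenoprotein. Among 13 tested enzymes that make superoxide, peroxide or nitric oxide, 6 rose and 4 fell, led by Xdh, xanthine dehydrogenase (2.24), Ncf4 and Cybb of the phagocyte NADPH oxidase (2.09 and 1.90) and Duox1 (1.74). Xdh and Duox1 were low, with means of 2.27 and 0.85 CPM in Control.

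All 11 tested NF-κB targets and feedback genes rose, with a median of 1.75, led by Cxcl1 (4.48), Ccl2 (3.76), Birc3 (3.49) and Il1b (3.40). Of 10 tested Nrf2 targets 4 rose and 2 fell, a share near the 56.5% of all genes called, with a median of 0.10. Markers of cell types were counted in the same average, in which 56.5% of all genes were called. Of 12 microglial markers 8 rose and none fell (median 0.54), of 10 astrocyte markers 2 rose and 6 fell (median -0.32), and of 12 neuron markers none rose and 8 fell (median -0.40). Their part in the members' differences was not tested.

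Cocaine alone called none of the 10 members, and 0.201% of all genes. At an unadjusted p under 0.05 there were 2 members, Sod3 and Sod1, and 1996 of all 15890 genes. Sod1 read 181, 170 and 146 CPM in Cocaine, overlapping Control. Sod3 read 30.9, 21.4 and 16.2 CPM in Cocaine, below all 3 Control libraries, with a log2 difference of -0.70 (SE 0.19, FDR = 0.103). Gpx3, not one of those 2 members, was widely spread at 162, 397 and 296 CPM, overlapping Control, with a difference of 0.67 (SE 0.39, FDR = 0.508). Without Cocaine replicate 3, the library rich in oligodendrocyte markers, no gene of all those tested was called and Sod3 differed by -0.48. Without Cocaine replicate 1, Sod3 was the 1 member called (-0.94, FDR = 0.00213), in a fit that called 1724 genes in all against 32 with every library. Neuron markers summed to 4706, 1849 and 1604 CPM in Cocaine replicates 1, 2 and 3, against 3262 to 5233 in Control. Microglial markers summed to 1301, 4785 and 3198 CPM in the same replicates, against 1673 to 3217 in Control. The part of these markers in the Sod3 call was not tested.

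With Tat and cocaine together, Sod2, Prdx5 and Gpx3 were called against Control, 3 of 10 members where 14.9% of all genes were called. Sod2 was at 1847, 3078 and 4270 CPM, above every Control library, with a log2 difference of 3.73 (SE 0.44, FDR = 1.38e-07). Prdx5 read 235, 355 and 358 CPM and differed by 0.82 (SE 0.21, FDR = 0.00676). Gpx3 read 107, 35.98 and 105 CPM, all under the lowest Control library. Its difference of -1.17 (SE 0.39, FDR = 0.0392) became -0.66 (FDR = 0.316) without HIV Tat + Coc replicate 2, and without Control replicate 1, 2 or 3 its FDR was 0.0860, 0.106 or 0.0628. In a fit to those 2 groups alone Sod2 remained the 1 member called.

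Cocaine added to Tat changed no member in cultures without a compound by limma (HIV Tat + Coc against HIV Tat, with 0.0189% of all genes called). At an unadjusted p under 0.05, 2 members and 1297 of all 15890 genes passed. Averaged over 5 backgrounds, Gpx4 was the only member called, 0.12 higher with cocaine (SE 0.03, FDR = 0.0233), beside 4.55% of all genes. Its difference was positive in 5 of 5 backgrounds, from 0.05 to 0.19, and the FDR was 0.0517 without Aml+T+Coc replicate 1. Cat (-0.21 to -0.01) and Prdx3 (-0.06 to -0.01), which were not called, also kept 1 sign in all 5 backgrounds. Sod2 spanned -0.49 to 0.50 over those backgrounds and Prdx5 -0.47 to 0.32.

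**Figure D3:**
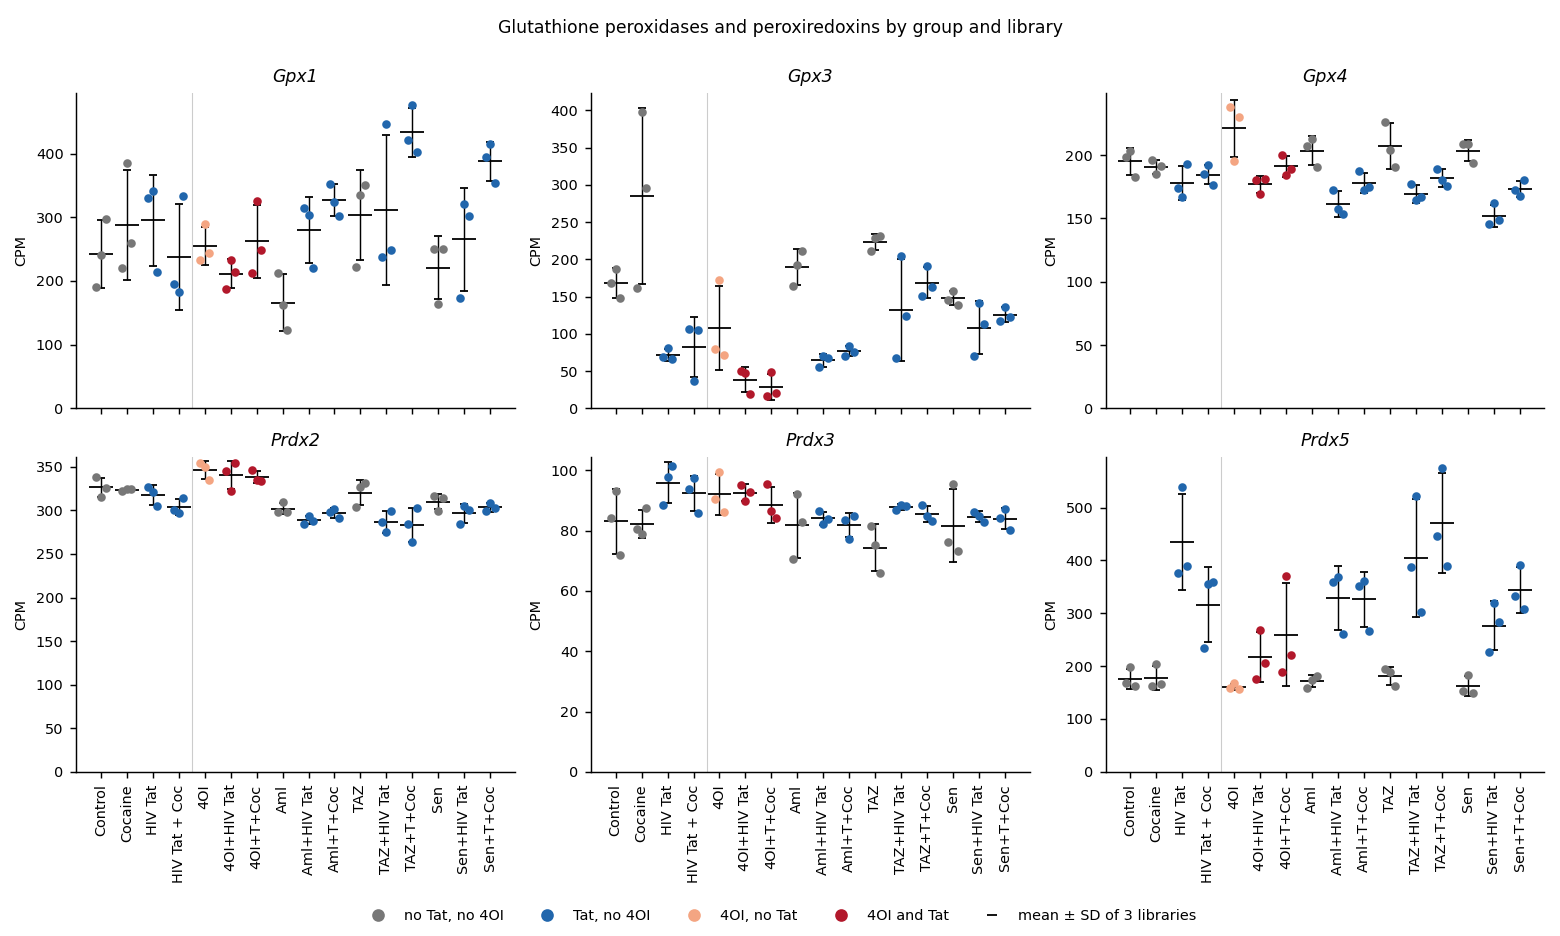
CPM of the 3 glutathione peroxidases and 3 peroxiredoxins in each library (points) of the 16 groups, with the mean and SD of 3 libraries as bars. Prdx2 and Prdx3 stay in narrow ranges of 263 to 355 and 66.0 to 101 CPM, whereas Gpx3 spans 17.1 to 397 CPM.

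4OI raised Cat and Sod1 whether or not Tat and cocaine were present. Cat read 281, 348 and 312 CPM in 4OI against 120, 136 and 125 in Control. All 9 libraries with 4OI (225 to 348 CPM) lay above all 39 without it (95.4 to 155). The log2 differences were 1.30 alone, 1.21 beside Tat and 1.01 beside Tat and cocaine (SE 0.09 each, n = 3 and 3, FDR = 7.84e-13, 1.01e-11 and 5.42e-10).

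Sod1 read 284, 256 and 295 CPM in 4OI against 181, 177 and 207 in Control. With 4OI the 9 libraries lay between 200 and 295 CPM and the 39 others between 146 and 207, so that the ranges met at their edge. Its differences were 0.56 alone, 0.35 beside Tat and 0.47 beside Tat and cocaine (SE 0.08 each, FDR = 1.03e-05, 0.00267 and 0.000143). In fits to the 2 groups compared alone the FDR of Sod1 was 0.0697, 0.0744 and 0.0563.

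Cat and Sod1 were the only members called in 4OI against Control, 2 of 10 where 3.15% of all genes were called. Beside Tat, 4 of 10 were called where 15.6% of all genes were: Cat, Sod1 and, in the other direction, Prdx5 and Sod2. Prdx5 read 175, 269 and 206 CPM in 4OI+HIV Tat, below each HIV Tat library, with a difference of -1.01 (SE 0.21, FDR = 0.00113). Sod2 read 970, 2483 and 1911 CPM, also below each HIV Tat library, with a difference of -1.29 (SE 0.44, FDR = 0.0388). The Sod2 call was lost without 4OI+HIV Tat replicate 1 (-0.91, FDR = 0.253) or replicate 3, or without HIV Tat replicate 1 or 2 (FDR = 0.0726 to 0.146), and in a fit to the 2 groups alone (FDR = 0.0678). Sod2 in 4OI alone, at 194, 205 and 204 CPM, lay within the Control range, with a difference of -0.12 (SE 0.44).

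Beside Tat and cocaine, 3 of 10 members were called where 7.36% of all genes were: Cat, Sod1 and Gpx3. Gpx3 read 17.1, 48.5 and 20.1 CPM in 4OI+T+Coc against 107, 35.98 and 105 in HIV Tat + Coc, so that 1 library of each group overlapped. The difference was -1.51 (SE 0.39, FDR = 0.0143), and the call was lost without HIV Tat + Coc replicate 1 or 3 or 4OI+T+Coc replicate 1 or 3 (-1.34 to -1.23, FDR = 0.0731 to 0.104). Sod2 at 1780, 3551 and 2043 CPM and Prdx5 at 189, 370 and 220 CPM overlapped HIV Tat + Coc, with differences of -0.30 (SE 0.44) and -0.32 (SE 0.21).

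No member's response to 4OI passed a test of the difference between cultures with and without Tat, which is the contrast given above for the Tat effect beside 4OI. Between cultures with Tat and cocaine and cultures with neither, again no member passed by limma. Cat had an unadjusted p under 0.05 there, its rise being smaller (difference -0.29, 95% confidence interval -0.54 to -0.04, FDR = 0.464). Of all 15890 genes, 1428 passed that unadjusted threshold and 0.113% were called by FDR.

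**Figure D4:**
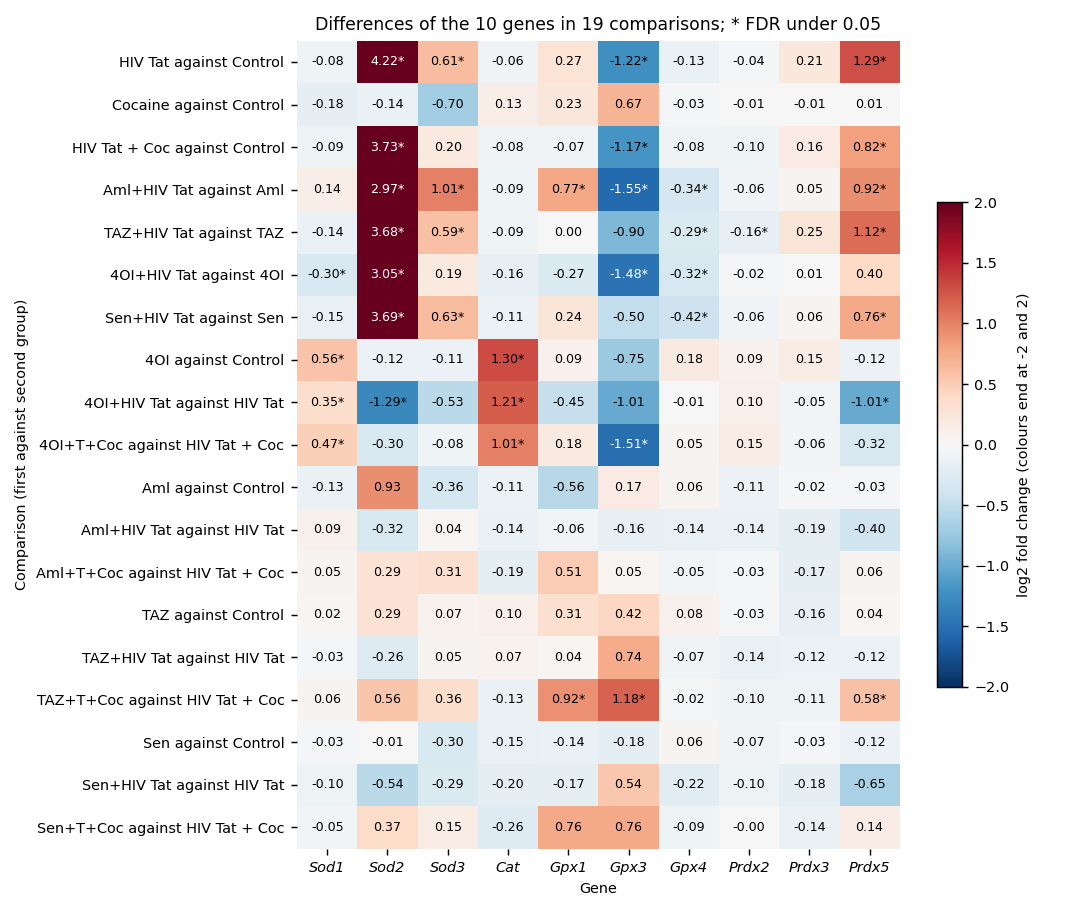
Log2 fold change of the 10 members (columns) in 19 comparisons (rows), printed in each cell, with colours that end at -2 and 2 and an asterisk at an FDR under 0.05. Sod2 is called in all 6 rows that set Tat against no Tat, and Cat and Sod1 in the 3 rows that set 4OI against its control.

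Averaged over the 3 backgrounds (9 libraries with 4OI against 9 without a compound), 5 of 10 members were called where 22.8% of all genes were. The medians were -0.02 over the members and 0.01 over all genes. Cat (1.17, SE 0.05), Sod1 (0.46, SE 0.05) and Prdx2 (0.11, SE 0.03) rose, and Gpx3 (-1.09, SE 0.23) and Prdx5 (-0.48, SE 0.12) fell. The Prdx2 call was lost when libraries were rescaled to equal sums (0.06, FDR = 0.142).

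Genes that supply the peroxidases were read with 4OI as well. Of the 29 tested pathway genes 11 rose and 3 fell in that average, beside 22.8% of all genes called, with a median of 0.07. The largest called differences were in Slc7a11, the cystine importer (3.01), Gclm, the modifier subunit of the glutathione-making ligase (2.24), Lrp8, a receptor for Selenop (0.99), and Txnrd1, the cytosolic thioredoxin reductase (0.87). All 10 tested Nrf2 targets rose (median 1.87), led by Hmox1 (2.53), Akr1b8 (2.07), Nqo1 (2.05) and Gstp1 (1.94). Akr1b8 was low, with means of 1.96 CPM in 4OI and 0.85 in Control, and was not called between those groups (0.91, SE 0.65, FDR = 0.640). Of 11 NF-κB genes 8 fell and none rose (median -0.69), with Ccl2 (-1.31), Birc3 (-1.21), Il1b (-1.20) and Tnfaip3 (-1.12) in front.

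Of the 13 enzymes that make oxidants, 2 rose and 5 fell with 4OI in the same average, in which 22.8% of all genes were called. Aox1, aldehyde oxidase, rose by 1.68, whereas Xdh (-1.62), Cybb (-1.21) and Ncf4 (-1.10) fell. Microglial markers were lower, 9 of 12 called and none higher (median -0.92), and astrocyte markers were higher, 5 of 10 called and none lower (median 0.36), while no neuron marker was called (median 0.11). The summed microglial markers were 599 to 2385 CPM in the 9 libraries with 4OI. They were 1673 to 3217 in Control, 2301 to 4138 in HIV Tat and 1808 to 3069 in HIV Tat + Coc. The range of 4OI alone (998 to 2385) overlapped Control, and that of 4OI+T+Coc (599 to 1985) overlapped HIV Tat + Coc. All libraries of 4OI+HIV Tat (909 to 2163) lay below those of HIV Tat. The part of these markers in the members' values was not tested.

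With the other 3 compounds few members passed a test. None of the 10 was called by limma in 8 comparisons. Those were Aml against Control (11.4% of all genes called), Aml+HIV Tat against HIV Tat (0.837%), Aml+T+Coc against HIV Tat + Coc (0.925%), TAZ against Control (0%), TAZ+HIV Tat against HIV Tat (0%), Sen against Control (0%), Sen+HIV Tat against HIV Tat (0.409%) and Sen+T+Coc against HIV Tat + Coc (0.0441%). At an unadjusted p under 0.05 the members numbered 3, 1, 1, 0, 1, 0, 3 and 2 in that order. Of all 15890 genes, 4154, 1988, 2829, 576, 851, 1378, 2909 and 2466 passed that threshold, in the same order. Single libraries left out gave 1 call in Aml against Control (without Aml replicate 1) and 2 in Sen+T+Coc against HIV Tat + Coc (without HIV Tat + Coc replicate 3). Sod2 was spread widely in these groups, from 187 to 647 CPM in Aml and from 132 to 542 in Sen, where the 3 libraries of 4OI lay between 194 and 205.

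The ninth such comparison was TAZ+T+Coc against HIV Tat + Coc, where 3 of 10 members rose and 28.7% of all genes were called. Gpx1 read 421, 477 and 402 CPM in TAZ+T+Coc and 195, 183 and 333 in HIV Tat + Coc, a difference of 0.92 (SE 0.27, FDR = 0.0145) without overlap. Gpx3 read 151, 191 and 163 CPM and differed by 1.18 (SE 0.39, FDR = 0.0272), and Prdx5 read 446, 574 and 389 CPM and differed by 0.58 (SE 0.21, FDR = 0.0388). No member was called without HIV Tat + Coc replicate 1, HIV Tat + Coc replicate 2 or TAZ+T+Coc replicate 2, and Prdx5 was not called without TAZ+T+Coc replicate 1 (0.61, FDR = 0.0665). The microglial sum was 4198 to 6445 CPM in TAZ+T+Coc against 1808 to 3069 in HIV Tat + Coc. In the same comparison 5 of 12 microglial markers rose and 9 of 12 neuron markers fell, and the summed neuron markers were 1276 to 1937 CPM in TAZ+T+Coc against 2770 to 3581 in HIV Tat + Coc. Whether this shift bears on the 3 genes was not tested.

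Averaged over 3 backgrounds, Prdx2 was the 1 member called for amlexanox (-0.09, SE 0.03, FDR = 0.0424), beside 7.99% of all genes. For tazemetostat Gpx3 (0.78, SE 0.23, FDR = 0.0275) and Prdx2 (-0.09, SE 0.03, FDR = 0.0401) were called, beside 11.4%. For senicapoc Cat was called (-0.20, SE 0.05, FDR = 0.0410), beside 1.16%. All 4 calls were lost when only the 6 groups compared entered the fit (FDR = 0.0562 to 0.137). Of the 18 fits that each left out 1 library, the call was lost in 13 for Prdx2 with amlexanox, 6 for Gpx3 and 9 for Prdx2 with tazemetostat, and 12 for Cat with senicapoc.

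Set against the other compounds over the same 3 backgrounds, at the doses used, which differ, 4OI differed in 8 members from amlexanox, 9 from tazemetostat and 5 from senicapoc, where 25.9%, 43% and 25.4% of all genes were called. Cat was higher with 4OI by 1.32, 1.16 and 1.37 (SE 0.05 each) and Sod1 by 0.46, 0.45 and 0.52 (SE 0.05 each). Gpx3 was lower by 1.11, 1.87 and 1.46 (differences -1.11, -1.87 and -1.46, SE 0.23 each). Prdx2 was higher by 0.21, 0.21 and 0.17 (SE 0.03 each), and its 9 libraries with 4OI (323 to 355 CPM) did not overlap those with amlexanox (284 to 309) or senicapoc (284 to 316). The count for amlexanox fell to 5 without Aml+HIV Tat replicate 2, 4OI+HIV Tat replicate 1, Aml+T+Coc replicate 2 or 4OI+T+Coc replicate 1.

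Neighbouring groups in the order of each member's mean mostly overlapped. For Sod2 the 10 Tat groups came first, from TAZ+T+Coc down to 4OI+HIV Tat, and 14 of the 15 neighbouring pairs overlapped, the gap being between 4OI+HIV Tat and Aml. For Cat the order was 4OI, 4OI+HIV Tat and 4OI+T+Coc, then Cocaine, and 12 of 15 neighbouring pairs overlapped. Sod1 had 13 overlapping pairs and the same 3 groups on top, with 4OI+T+Coc second. Gpx1, led by TAZ+T+Coc and Sen+T+Coc, and Gpx3, led by Cocaine and lowest in 4OI+T+Coc, had 14 each. For Sod3, Gpx4, Prdx2, Prdx3 and Prdx5 all 15 overlapped. The median coefficient of variation within groups was 23.8% for Sod2, 22.2% for Gpx1, 16.5% for Prdx5 and 3.00% for Prdx2.

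The genes whose pattern was most like each member's were found by Pearson's r on the log2 scale over the 48 libraries, among 12055 genes, as a description, since the libraries share treatments. For Sod2 they were Cxcl1 (0.98), Orm1 (0.98) and Ccl2 (0.98), and for Prdx5 Tnip1, Icam1 and Tnfaip3 (0.97 each). Cat was most like Blvrb (0.98), Gstp1 (0.95) and Entpd5 (0.95), and Sod1 most like Ypel5 (0.93), Aox1 (0.92) and Pir (0.91). Gpx1 ran with Arhgap17 (0.95), Cib1 (0.93) and Mthfs (0.93), and Gpx3 with Slc10a6 (0.91), Fcgrt (0.90) and Selenop (0.90). The values were lower for Sod3 (Akap2, 0.85, Ginm1, 0.83, and Sfrp2, 0.82), Gpx4 (RGD1562987, 0.84, Tmem205, 0.83, and Hes6, 0.81), Prdx2 (Gpc6, 0.86, Ptprz1, 0.84, and Pcdhgc3, 0.82) and Prdx3 (Pde9a, 0.74, Gosr1, 0.72, and Clpb, 0.72). Among the members, the highest values were 0.89 for Sod2 with Prdx5 and 0.83 for Sod1 with Cat.

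**Figure D5:**
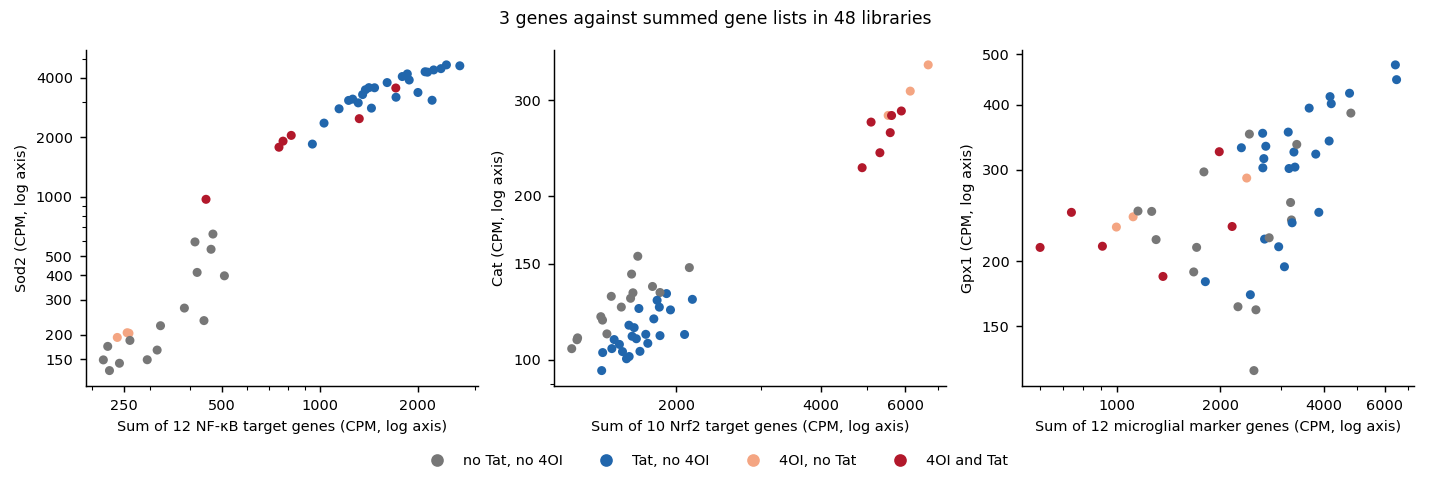
CPM of Sod2, Cat and Gpx1 (y axes, log) against the summed CPM of NF-κB targets, Nrf2 targets and microglial markers (x axes, log) in the 48 libraries. Sod2 is higher where the NF-κB sum is higher, and the 9 libraries with 4OI form their own cluster in the Cat panel. Gpx1 is scattered along the microglial sum, which spans 599 to 6497 CPM. Pearson's r of Gpx1 on the log2 scale was 0.54 with the microglial sum and -0.76 with the sum of neuron markers, which is not drawn.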

How the data were processed

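RNA-seq was done on 48 libraries of rat mixed cortical cultures in 16 groups of 3, taken from the labels. The authors used a directional library kit, aligned reads with STAR and obtained counts per gene from uniquely aligned reads (featureCounts). The submitters' processing notes name Trim Galore 0.4.5, STAR 2.7.2, SAMtools 1.5 and Subread 1.5.3. The paper and the notes name different rat assemblies, so the build of the table is uncertain and no position of the reads is given. The authors deposited a signal per gene and library, CPM after TMM scaling in edgeR. Each library summed to 930399 to 1046890. The smallest common step put the depth at 17.5 to 29.1 M reads, so that 0.5 CPM stood for 8.58 to 15.0 reads. Of the values above 0, 84.9 to 87.3% were whole reads within 0.02 read, so count tests were not used. The deposited columns of the authors' own comparisons (log2 fold change, log2 mean level, likelihood ratio score, p-value and FDR) were not used, and 0 columns belonged to other samples.

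The 15890 genes that reached 0.5 CPM in 3 or more libraries were fitted as log2(CPM + 0.5) with limma 3.58.1 in R 4.3.3 (1 mean per group, eBayes with a trend, Benjamini-Hochberg FDR under 0.05). The smallest p of an exact permutation test of 3 against 3 libraries is 0.1. Fold changes on this scale understate changes of low genes. The fit was tested on simulated counts, drawn independently per gene at the same depth for all libraries, with changes only in HIV Tat. Shifts of many genes together, as with a change of cell types, were not simulated. The members and gene lists were chosen with earlier results of these data known, and a list is described by its counts and median. All members are named. Of each list up to 4 called genes with the largest differences are named, and for each member the 3 genes of most like pattern with a mean of at least 5 CPM. Correlations between the 48 pairs of libraries within a group were 0.963 to 0.996. Same-numbered libraries deviated together in all 3 pairs (r over 0.1) in 9 of 24 comparisons, among them HIV Tat + Coc against Control and 4OI against Control but not HIV Tat against Control, and the labels say nothing of what a number stands for. Alternatives changed the pseudocount, the filter, the scaling, the trend, the libraries in the fit and the replicate block, and left out each library in turn. RefSeq names 4 pseudogenes of Gpx4 and 1 each of Sod2 and Prdx3, whose reads unique mapping may drop, so the levels of these 3 genes are uncertain. Some genes of the lists were not analysed here. Figures were drawn with matplotlib.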

Additional observations from a re-analysis of the deposited data

How the results depend on the processing

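No called difference of a member changed sign under any alternative. The counts of members called that moved by more than 1.5 times were as follows, against the reported 4 for HIV Tat, 3 for HIV Tat + Coc and 2 for 4OI against Control, 3 for 4OI+T+Coc against HIV Tat + Coc, and on average 1 for added cocaine, 1 for amlexanox, 2 for tazemetostat and 1 for senicapoc. With the compared groups alone in the fit, the counts were 1 for HIV Tat + Coc, 1 for 4OI, 1 for 4OI+T+Coc, 2 for added cocaine, 0 for amlexanox, 0 for tazemetostat and 0 for senicapoc. In the 21 libraries of 7 groups HIV Tat against Control had 2. Without a filter on low values amlexanox had 0, tazemetostat 1 and senicapoc 0. Without the trend amlexanox had 0 and tazemetostat 1. Amlexanox had 2 with libraries rescaled to equal sums and 0 with quantile normalization. With the replicate block added cocaine had 2 (Cat, FDR = 0.0205, in addition to Gpx4) and amlexanox 2 (Cat, FDR = 0.0136, in addition to Prdx2), and Sen+HIV Tat against HIV Tat had 2 (Gpx4 and Prdx5). The block ended no call and moved no other count by more than 1.5 times. Leaving out single libraries gave 0 to 1 members for Cocaine and 2 to 4 for HIV Tat against Control, and on average 0 to 2 for added cocaine, 0 to 2 for amlexanox, 0 to 4 for tazemetostat and 0 to 1 for senicapoc. A left-out library leaves a group of 2, assumed to vary like the others. The smaller fits have fewer residual libraries, and the cause of the other moves was not tested. TAZ+T+Coc against HIV Tat + Coc had 1 (Gpx1), TAZ+HIV Tat against TAZ 2 and 4OI+HIV Tat against 4OI 1 with the compared groups alone. Calls over all genes moved too. With the compared groups alone they were 1252 (reported 3382) for HIV Tat, 0 (32) for Cocaine, 619 (2372) for HIV Tat + Coc, 101 (501) for 4OI, 1134 (2475) for 4OI+HIV Tat, 113 (1170) for 4OI+T+Coc, 1093 (723) for added cocaine, 543 (1270) for amlexanox, 591 (1811) for tazemetostat and 54 (184) for senicapoc. In the 21 libraries the first 6 of these were 2229, 1, 1463, 221, 1266 and 559. With the block they were 95 for Cocaine, 1150 for added cocaine, 1906 for amlexanox, 3430 for tazemetostat and 754 for senicapoc. Cocaine had 72 with equal sums and 21 with quantile normalization, and senicapoc 116 without a filter. Leaving out single libraries moved the all-gene count by more than 1.5 times in 9 of 12 comparisons. For Cocaine it ran from 0 (without Cocaine replicate 3 or Control replicate 1 or 2) to 1724 (without Cocaine replicate 1), for HIV Tat from 1830 to 3857, for 4OI from 219 to 500, for 4OI+HIV Tat from 1027 to 2958, for 4OI+T+Coc from 592 to 1097, for added cocaine from 401 to 1381, for amlexanox from 803 to 1533, for tazemetostat from 412 (without TAZ+HIV Tat replicate 2) to 3237 (without TAZ+HIV Tat replicate 3), and for senicapoc from 33 to 540 (without HIV Tat + Coc replicate 2 or 3). Each member had at least 366 reads in each library.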

Other observations

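Of the 8 other glutathione peroxidases and peroxiredoxins listed, 5 passed the filter on low values. Averaged over 5 backgrounds with and without Tat, Gpx7 (0.31) and Gpx8 (0.13), which act in the endoplasmic reticulum, rose, and Prdx6, which reduces phospholipid peroxides, fell (-0.27), 3 of the 5 where 56.5% of all genes were called. With 4OI, Prdx1, a cytosolic peroxiredoxin, was the 1 of the 5 called (0.35 averaged over 3 backgrounds), where 22.8% of all genes were called. Both shares are near those of all genes. Of 8 genes of mitochondrial mass and biogenesis, 2 rose and 4 fell with Tat (56.5% of all genes called), with Ppargc1a, a coactivator of mitochondrial biogenesis, at -0.41 and Tomm20, an outer membrane import receptor, at -0.33. With 4OI, 3 of those 8 rose and none fell (22.8% of all genes called), led by Hspd1, the mitochondrial chaperonin (0.34), and Ppargc1a (0.29).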
